A study of Mus musculus with 10 samples.

Results

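The genes described here are 9 members of the interleukin-1 (IL-1) and interleukin-18 (IL-18) family: the ligand genes Il1a, Il1b and Il18, the genes of the receptor antagonist Il1rn and of the IL-18 binding protein Il18bp, and the receptor genes Il1r1, Il1r2, Il1rap and Il1rl1. They were chosen by name from the 24538 genes counted in the 10 libraries. Of the 9, 8 had a mean of at least 1 FPKM (a fragment count scaled by transcript length and by library size) in at least 1 group and were tested among 11571 genes. Il1rl1 stayed under that level and is given by its counts.

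RNA-seq was performed on metastasis-associated macrophages (MAMs) sorted from lung metastases and resident alveolar macrophages (RAMs) sorted from normal lungs, with 5 libraries in each group. All mice were wild-type C57BL6/J of 8 to 10 weeks. Metastases were seeded with E0771-LG, a metastatic mouse breast cancer line, injected into the tail vein of females at 6 to 8 weeks. Both sorts took CD45+ F4/80+ LY6C- MRC1+ cells with high forward scatter, MAMs as CD11B+ CD11C- and RAMs as CD11B- CD11C+. Inhibitors of transcription were present while the tissue was digested. The labels state that metastases were pooled from 2 to 4 mice per MAM sample, by which a MAM library is a mean over animals, but the methods of the study give a wider range that includes a lone mouse. Those methods name pooling for metastases only. The groups differed in tissue, in tumour and in gate, and these cannot be told apart.

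IL-1 alpha and IL-1 beta act through the same receptor, which pairs the binding chain encoded by Il1r1 with the accessory chain encoded by Il1rap and signals through Myd88 and IRAK kinases to NF-kappa B. The pathway is held back by the antagonist encoded by Il1rn, which occupies the receptor without signalling, and by the decoy receptor encoded by Il1r2, while IL-18 is neutralised by the soluble binding protein encoded by Il18bp. IL-1 beta and IL-18 are made as precursors that are cleaved by caspase-1 in inflammasomes, and macrophages are a main source of both. RNA levels therefore do not give the amount of active cytokine.

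Counts on genes ran from 55391447 to 87523247 per MAM library, with a median of 66942988, and from 50746305 to 72150650 per RAM library, with a median of 52760267. Levels are given as CPM, a gene's count scaled to the normalised total of the tested genes in its library, with no correction for transcript length. Differential expression required more than a 2-fold difference and an adjusted p below 0.05, from a quasi-likelihood test in edgeR whose p-values were adjusted by Benjamini-Hochberg over the 11571 genes. Log2 fold changes are MAMs minus RAMs, with their standard error (SE).

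Marker genes were examined for the labelled cell types. The 7 macrophage genes summed to between 21166 and 27610 CPM in MAM libraries and between 27989 and 35369 CPM in RAM libraries, led in both by the lysozyme gene Lyz2. Without Lyz2 the sums were 4462 to 5184 CPM in MAMs and 2231 to 2617 CPM in RAMs, the reverse order. Of 10 alveolar macrophage genes, 9 were differentially expressed and lower in MAMs, against 15.1% of all genes tested. The list summed to 416 to 798 CPM in MAMs against 10755 to 13436 CPM in RAMs. Siglecf, a defining gene of alveolar macrophages, had a mean of 3.85 CPM in MAMs and 333 CPM in RAMs. Of 7 monocyte genes, 6 were differentially expressed and higher in MAMs, against 15.3% of all genes tested. Among them, Ccr2, the receptor by which monocytes follow CCL2, had a mean of 444 CPM in MAMs and 14 CPM in RAMs. The remaining monocyte gene, Chil3, was also on the alveolar list and was the most abundant gene of both lists in RAMs, at 9151 CPM.

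Of the 8 members tested, 4 were differentially expressed and higher in MAMs (Il1b, Il1rn, Il18bp and Il1r2), against 15.3% of all genes tested. The differentially expressed and lower members were Il18 and Il1r1, 2 of 8, against 15.1% of all genes tested. Adjusted p was under 0.05 for 7 of the 8, counting Il1a, against 56.2% of all genes in either direction, and Il1rap did not pass. The CPM ranges of the 2 groups did not overlap for 5 of the 8 (Il1b, Il1rn, Il18, Il18bp and Il1r2), against 44.9% of all genes. The call of Il1r1 was the least stable of the 6: without MAM replicate 1, MAM replicate 4 or RAM replicate 1 only 1 lower member was left.

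**Figure D1:**
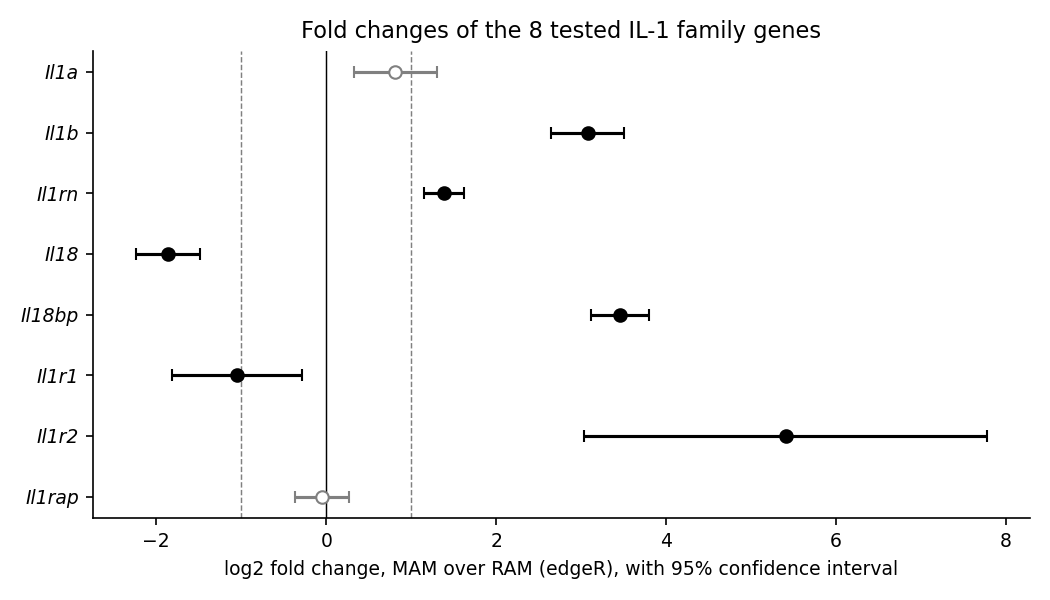
Log2 fold change (MAMs minus RAMs) of the 8 tested members with 95% confidence intervals from edgeR, where filled points mark differentially expressed genes and dashed lines mark a fold change of 2. Estimates ran from -1.86 for Il18 to 5.41 for Il1r2, and the interval of Il1rap, -0.37 to 0.27, spanned 0.

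Il1b, the gene of the secreted ligand IL-1 beta, was measured at 304, 210, 289, 270 and 242 CPM in MAM replicates 1 to 5 and at 30.7, 17.6, 27.1, 36.9 and 43.4 CPM in RAM replicates 1 to 5. The lowest MAM library lay well above the highest RAM library, and the MAM libraries lay close to each other. The group means were 263 ± 37.6 and 31.1 ± 9.78 CPM (SD, n = 5 each), an 8.45-fold difference. The log2 fold change was 3.08 (SE 0.2, 95% confidence interval 2.65 to 3.51), with an adjusted p of 3.8e-09 (edgeR, Benjamini-Hochberg). Because the libraries are bulk RNA, fewer cells of a type and less RNA per cell cannot be told apart, here and for the other members.

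Il1a encodes IL-1 alpha, a ligand of the same receptor that is active without cleavage by caspase-1 and largely stays in or on the cell. Its libraries had 71.7, 51.5, 54.8, 27.1 and 44.3 CPM in MAM replicates 1 to 5 and 26.3, 19.9, 31.1, 26.1 and 38.7 CPM in RAM replicates 1 to 5. MAM replicate 4 lay within the RAM range, and the other 4 MAM libraries lay above every RAM library. The means were 49.9 ± 16.2 and 28.4 ± 6.99 CPM (SD, n = 5 each), a 1.76-fold difference with a log2 fold change of 0.81 (SE 0.227, 95% confidence interval 0.33 to 1.30) and an adjusted p of 0.00659 (edgeR, Benjamini-Hochberg). Il1a therefore passed on p without reaching a fold change of 2. The estimate was uneven over the replicates, at 1.20 in replicates 1 to 3 of each group and 0.14 in replicates 4 and 5, where it did not pass. These subsets were chosen after seeing the data, from the order of columns in the FPKM table.

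Il1a and Il1b are neighbours on the minus strand of chromosome 2. In GRCm38 with GENCODE M21 annotation, Il1a lies at chr2:129299610-129309972 and Il1b at chr2:129364570-129371139, each with 7 exons in its longest coding transcript, and 54.6 kb lie between them. Their promoter windows are printed because the neighbours changed by different amounts. The sequences are from RefSeq on GRCm38.p6, read on the minus strand from 250 bases before to 50 bases after the start of the gene, at chr2:129309923-129310222 for Il1a and chr2:129371090-129371389 for Il1b. Capitals mark matches to the motifs searched, which in Il1a were PU.1 (AGGAAG) starting 40 bases before the start site and AP-1 (TGACTCA) starting 12 bases before it. No motif searched had a match in the window of Il1b.
Il1a: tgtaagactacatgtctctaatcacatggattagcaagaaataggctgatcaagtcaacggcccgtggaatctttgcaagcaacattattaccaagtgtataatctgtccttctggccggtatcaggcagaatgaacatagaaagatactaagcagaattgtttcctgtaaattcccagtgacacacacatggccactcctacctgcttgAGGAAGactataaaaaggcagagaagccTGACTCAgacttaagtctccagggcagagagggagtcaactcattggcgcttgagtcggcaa
Il1b: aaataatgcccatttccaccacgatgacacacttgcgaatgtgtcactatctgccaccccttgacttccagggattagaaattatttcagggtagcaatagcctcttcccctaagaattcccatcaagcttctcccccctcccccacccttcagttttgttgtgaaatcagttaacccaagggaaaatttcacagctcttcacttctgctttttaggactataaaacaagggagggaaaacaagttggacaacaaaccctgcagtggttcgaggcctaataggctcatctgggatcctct

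The motifs were NF-kappa B, AP-1 (TGACTCA), C/EBP (TTGCNNAA), PU.1 (AGGAAG) and the core of the interferon-stimulated response element (ISRE core, GAAANNGAA), searched on both strands. Of 32851 promoter windows of 300 bases, 8.46% held the NF-kappa B motif, 5.20% AP-1, 10.8% C/EBP, 35.4% PU.1 and 8.56% the ISRE core. All 9 members matched a RefSeq promoter, with 13 windows in all. The first window of Il1rn held AP-1, those of Il1r1 held C/EBP in the first and NF-kappa B in the other, the window of Il1rap held PU.1 and the ISRE core, and the first window of Il1rl1 held C/EBP. The window of Il1r2 held none of them. A match describes the letters only.

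Il18, the gene of the ligand IL-18, changed in the opposite direction to Il1b. It was measured at 37.6, 52.6, 33.3, 24.7 and 27.8 CPM in MAM replicates 1 to 5 and at 122, 149, 129, 132 and 109 CPM in RAM replicates 1 to 5. Every RAM library lay above every MAM library, and the highest libraries of both groups were those of replicate 2. The means were 35.2 ± 10.9 and 128 ± 14.6 CPM (SD, n = 5 each), 3.64-fold higher in RAMs. This gave a log2 fold change of -1.86 (SE 0.175, 95% confidence interval -2.24 to -1.49), with an adjusted p of 2.7e-07 (edgeR, Benjamini-Hochberg).

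**Figure D2:**
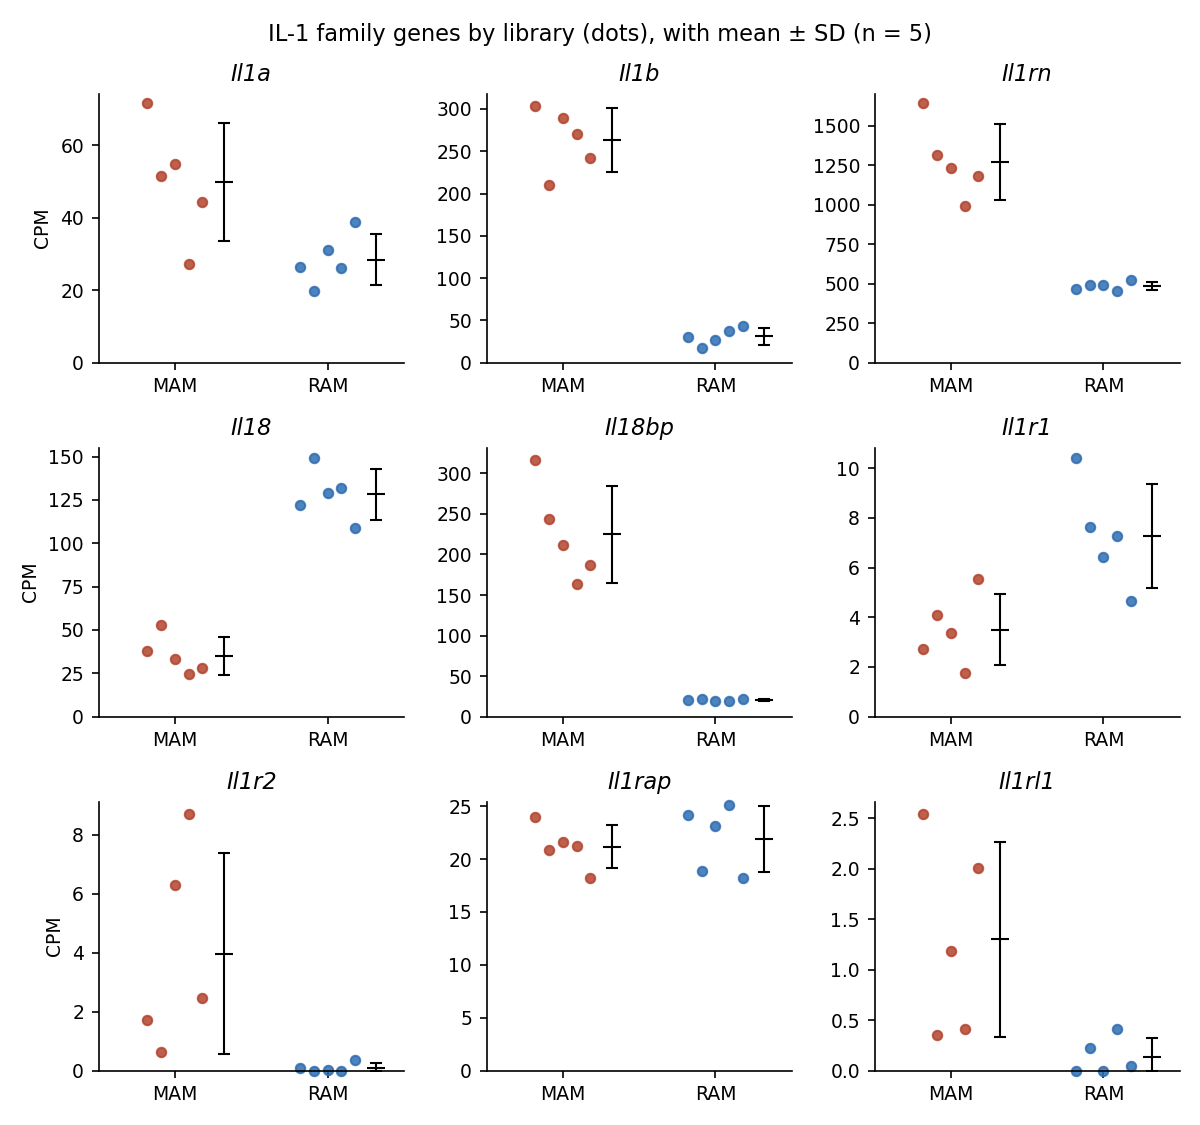
Level of each of the 9 members in CPM, with dots for the 5 MAM and 5 RAM libraries and bars for mean ± SD, which stop at 0. For Il1b the dots ran from 210 to 304 CPM in MAMs and from 17.6 to 43.4 CPM in RAMs, while for Il1rap they ran from 18.2 to 24.0 CPM and from 18.2 to 25.1 CPM.

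Il1rn encodes the IL-1 receptor antagonist, with secreted and intracellular forms that gene counts do not separate. MAM replicates 1 to 5 had 1646, 1319, 1231, 991 and 1182 CPM, and RAM replicates 1 to 5 had 469, 495, 495, 452 and 523 CPM. All MAM libraries lay above all RAM libraries, and the RAM libraries varied much less than the MAM libraries. The means were 1274 ± 240 and 487 ± 27.2 CPM (SD, n = 5 each), a 2.62-fold difference. This was a log2 fold change of 1.39 (SE 0.109, 95% confidence interval 1.15 to 1.62), with an adjusted p of 3.5e-08 (edgeR, Benjamini-Hochberg). Il1rn lies at chr2:24336853-24351494 on the plus strand, on the same chromosome as Il1a and Il1b and far from them.

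Il18bp, the gene of the soluble protein that binds IL-18, had the second highest log2 fold change of the members after Il1r2. MAM replicates 1 to 5 had 317, 244, 212, 164 and 187 CPM, and RAM replicates 1 to 5 had 20.0, 21.4, 18.9, 19.5 and 22.3 CPM. The groups were far apart, and the MAM libraries spread from replicate 4, the lowest, to replicate 1, the highest. The means were 225 ± 59.4 and 20.4 ± 1.4 CPM (SD, n = 5 each), an 11-fold difference. On the log2 scale the fold change was 3.46 (SE 0.159, 95% confidence interval 3.12 to 3.80), with an adjusted p of 6.6e-11 (edgeR, Benjamini-Hochberg). The ligand Il18 and its binding protein Il18bp thus moved in opposite directions.

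The promoter windows of Il18 and Il18bp are printed as those of a ligand and its binding protein whose levels moved apart. Both are from RefSeq on GRCm38.p6, that of Il18 at chr9:50554450-50554749 on the plus strand and that of Il18bp at chr7:102018183-102018482 on the minus strand. Capitals mark the same motifs, in Il18bp a C/EBP match starting 49 bases before the start site and PU.1 matches on the opposite strand at 37 bases before and 36 bases after it. The window of Il18 held no match.
Il18: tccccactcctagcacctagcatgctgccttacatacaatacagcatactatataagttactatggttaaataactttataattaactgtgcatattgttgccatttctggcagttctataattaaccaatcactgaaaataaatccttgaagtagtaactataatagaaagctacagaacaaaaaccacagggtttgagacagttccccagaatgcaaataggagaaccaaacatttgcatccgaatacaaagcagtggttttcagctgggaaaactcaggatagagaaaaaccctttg
Il18bp: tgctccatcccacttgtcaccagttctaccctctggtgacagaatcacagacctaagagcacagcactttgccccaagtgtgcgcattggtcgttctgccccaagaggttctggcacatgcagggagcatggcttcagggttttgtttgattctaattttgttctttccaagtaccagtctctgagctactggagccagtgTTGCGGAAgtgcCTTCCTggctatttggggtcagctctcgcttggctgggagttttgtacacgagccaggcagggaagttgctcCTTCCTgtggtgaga

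Members of opposite function were next compared within each library, as ratios of FPKM, which correct for transcript length. The ratio of the antagonist Il1rn to the ligand Il1b was 3.63, 4.31, 2.94, 2.54 and 3.34 in MAM replicates 1 to 5 and 12.5, 26.2, 14.3, 12.0 and 10.6 in RAM replicates 1 to 5. Antagonist RNA exceeded Il1b RNA in every library, by less in each MAM library than in any RAM library. The mean ratios were 3.35 ± 0.675 in MAMs and 15.1 ± 6.34 in RAMs (SD, n = 5 each). With counts per kilobase of the longest coding transcript they were 2.69 and 9.43. No test was run on the ratios.

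The ratio of Il18bp to Il18 was 7.23, 4.31, 5.37, 5.74 and 7.29 in MAM replicates 1 to 5 and 0.0768, 0.0641, 0.067, 0.0938 and 0.108 in RAM replicates 1 to 5. Binding protein RNA exceeded ligand RNA in every MAM library, and ligand RNA exceeded binding protein RNA in every RAM library. The means were 5.99 ± 1.27 and 0.0819 ± 0.0186 (SD, n = 5 each). With counts per kilobase of the longest coding transcript in place of FPKM, the means were 2.24 and 0.055, on the same sides of 1.

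The ratio of Il1b to Il1a was 3.46, 3.33, 4.11, 7.33 and 4.12 in MAM replicates 1 to 5 and 0.774, 0.536, 0.648, 0.665 and 0.724 in RAM replicates 1 to 5. MAM replicate 4, the library with the lowest Il1a, had the highest ratio. Il1b exceeded Il1a in every MAM library on both length scales. In RAMs the order depended on the scale, since counts per kilobase gave ratios of 1.27 to 2.06 where FPKM gave ratios below 1.

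**Figure D3:**
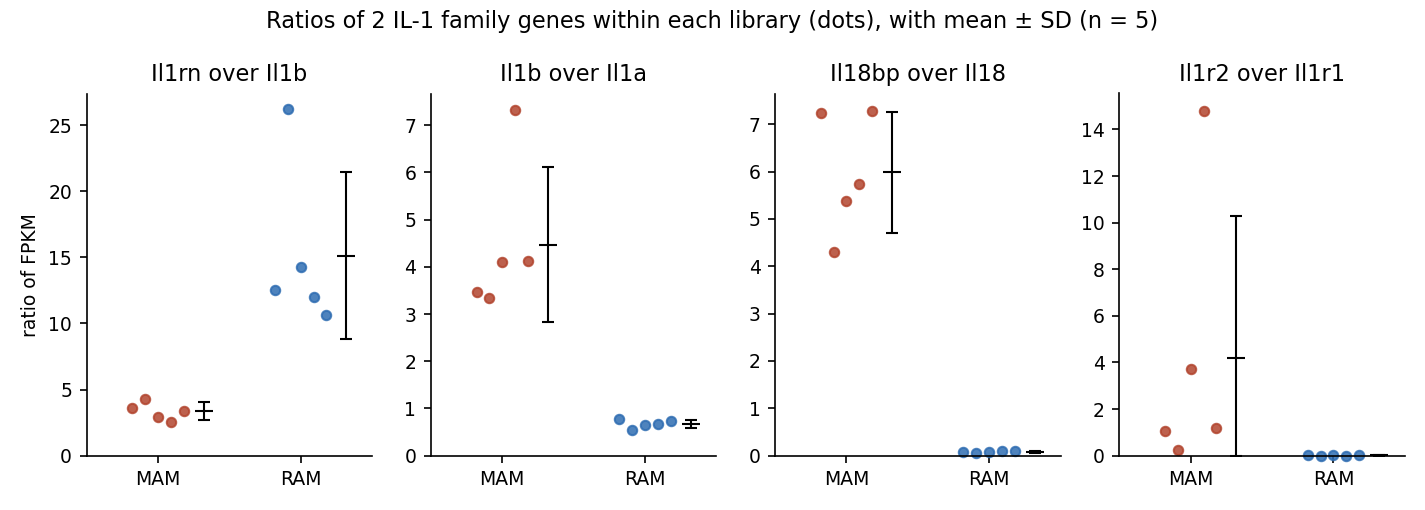
Ratios of FPKM between pairs of members on linear axes from 0, with dots for the 5 MAM and 5 RAM libraries and bars for mean ± SD, which stop at 0. The ranges of the groups did not overlap for any of the 4 ratios, and that of Il18bp to Il18 ran from 4.31 to 7.29 in MAMs and from 0.0641 to 0.108 in RAMs.

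Il1r1 encodes the signalling receptor for both IL-1 ligands and was a low gene in both groups. It was measured at 2.74, 4.10, 3.38, 1.74 and 5.53 CPM in MAM replicates 1 to 5 and at 10.4, 7.63, 6.42, 7.28 and 4.65 CPM in RAM replicates 1 to 5. These levels rest on 96 to 385 counts in MAMs and 218 to 605 counts in RAMs. MAM replicate 5 lay above RAM replicate 5, so the groups overlapped. The log2 fold change was -1.05 (SE 0.357, 95% confidence interval -1.82 to -0.29), with an adjusted p of 0.0207 (edgeR, Benjamini-Hochberg), just past the fold change of 2. It was -0.98 without MAM replicate 1, -0.88 without MAM replicate 4 and -0.90 without RAM replicate 1, where it was no longer differentially expressed. Adjusted p over all alternatives ran from 0.00859 to 0.471 (edgeR, DESeq2 or limma, Benjamini-Hochberg), the highest in replicates 4 and 5 alone.

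Il1r1 is also a gene of stromal and endothelial cells, so the 10 markers of stroma and endothelium were set beside it. Both sorts asked for CD45, which these cells lack. Of the 5 tested, 4 were differentially expressed and higher in MAMs, against 15.3% of all genes tested, and 1 (Vwf) was lower, against 15.1%. Those higher were 2 without MAM replicate 3 and 1 with limma on log2(FPKM + 1). A gene could enter the test through its level in 1 group alone. The list summed to 56.8, 42.3, 84.7, 63.9 and 67.0 CPM in MAM replicates 1 to 5 and to 153, 153, 127, 218 and 143 CPM in RAM replicates 1 to 5. Most of the RAM sum was Vwf, with means of 19.3 CPM in MAMs and 151 CPM in RAMs, and Cldn5 was at 0 in all MAM libraries. Without Vwf the sums were 23.2 to 59.1 CPM in MAMs and 1.86 to 11.5 CPM in RAMs, which reversed the order of the groups. The part of these cells in the level of Il1r1 was not tested.

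Il1r2 encodes the decoy receptor, which binds IL-1 without signalling. It was measured at 1.73, 0.637, 6.31, 8.69 and 2.46 CPM in MAM replicates 1 to 5, from 85, 34, 282, 480 and 171 counts. RAM replicates 1 to 5 had 5, 0, 1, 0 and 17 counts, or 0.0856, 0, 0.0207, 0 and 0.362 CPM, where a count of 0 allows up to 0.045 CPM in RAM replicate 2 and 0.0626 CPM in RAM replicate 4. The groups did not overlap, but the MAM libraries varied widely, with replicates 3 and 4 far above replicate 2. The log2 fold change was 5.41 (SE 1.11, 95% confidence interval 3.04 to 7.78), with an adjusted p of 6.7e-04 (edgeR, Benjamini-Hochberg). Its size depended on RAM replicate 5, since it was 7.08 without that library, and it was 4.89 without MAM replicate 4. With limma on log2(FPKM + 1), where the pseudocount weighs on low values, it was 1.23.

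Il1r2 is abundant in neutrophils, and 13 neutrophil markers were set beside it. Both sorts asked for F4/80 and MRC1, proteins typical of macrophages. Of the 6 tested, 4 were differentially expressed and higher in MAMs, against 15.3% of all genes tested, and 1 was lower, against 15.1%. Those higher were 2 without MAM replicate 4 or RAM replicate 4. In replicates 1 to 3 alone 1 was higher and 2 were lower. The list summed to 146, 180, 231, 323 and 234 CPM in MAM replicates 1 to 5 and to 158, 151, 204, 154 and 140 CPM in RAM replicates 1 to 5. The most abundant was Csf3r, also a gene of monocytes and macrophages, at means of 146 and 68.4 CPM. Without Csf3r the sums were 48.0, 56.7, 68.0, 113 and 101 CPM in MAMs and 77.1, 84.9, 126, 106 and 71.0 CPM in RAMs. Of the listed genes, Elane was at 0 in all 10 libraries. Ly6g was at 0 in all RAM libraries and at 0.346, 0.0187, 1.48, 0 and 0 CPM in MAM replicates 1 to 5. The gene called lower was Cxcr2, at means of 7.41 CPM in MAMs and 31.2 CPM in RAMs. The genes called higher were Csf3r, S100a8, S100a9 and Mmp9, with log2 fold changes of 1.09, 1.12, 3.47 and 6.21. Csf3r lost its call without MAM replicate 4 (0.92) or RAM replicate 4 (0.98), and S100a8 lost its call without MAM replicate 4 (0.78) or 5 (1.09) or any of RAM replicates 1 to 4 (1.03 to 1.17). With the replicate block S100a8 was at 1.00 and not called, and its call was kept under only 8 of 21 alternatives. S100a9 was at 0.935, 0.937, 2.48, 10.1 and 4.98 CPM in MAM replicates 1 to 5, highest in replicate 4 like Il1r2, and at 0.015 to 1.06 CPM in RAMs. Csf3r, S100a8, Cxcr2 and Mmp8, which did not pass, were also highest in MAM replicate 4, at 210, 7.58, 18.7 and 64.7 CPM. Among the tested genes of the list only Mmp9 was not, and it was lowest there, at 11.5 CPM. Of the genes not tested, Retnlg and Ltf were highest in MAM replicate 4, at 0.235 and 0.38 CPM. Ly6g and Ngp were highest in replicate 3 (1.48 and 0.246 CPM), Mpo in replicate 1 (0.264 CPM) and Camp in replicate 5 (0.776 CPM). In MAM replicate 3, second highest for Il1r2, Csf3r was also second highest, at 163 CPM, while S100a8 and Cxcr2 were lowest, at 2.42 and 1.59 CPM. The part of neutrophils in the level of Il1r2 was not tested.

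The ratio of the decoy Il1r2 to the signalling receptor Il1r1, in FPKM, was 1.07, 0.225, 3.71, 14.8 and 1.20 in MAM replicates 1 to 5 and 0.0122, 0, 0.0236, 0 and 0.0423 in RAM replicates 1 to 5. The decoy exceeded the receptor in 4 of 5 MAM libraries and in no RAM library. The MAM mean of 4.20 ± 6.06 (SD, n = 5) rested on replicate 4 and was 1.55 without it. The RAM mean of 0.0156 ± 0.0178 (SD, n = 5) was 0.00897 without RAM replicate 5. By counts per kilobase the means were 6.64 in MAMs and 0.0734 in RAMs.

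Il1rap encodes the accessory chain shared by the receptors for IL-1, IL-33 and IL-36. It was measured at 24.0, 20.9, 21.6, 21.2 and 18.2 CPM in MAM replicates 1 to 5 and at 24.2, 18.9, 23.1, 25.1 and 18.2 CPM in RAM replicates 1 to 5. The ranges lay almost on top of each other. The log2 fold change was -0.049 (SE 0.151, 95% confidence interval -0.37 to 0.27), with an adjusted p of 0.804 (edgeR, Benjamini-Hochberg). The sign of an estimate this small was not stable, and it was 0.0024 without MAM replicate 5 and 0.0026 without RAM replicate 4.

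Il1rl1 encodes ST2, the receptor for IL-33, which is best known from mast cells, type 2 innate lymphoid cells (ILC2) and some T cells. It had 125, 19, 53, 23 and 140 counts in MAM replicates 1 to 5 and 0, 15, 0, 20 and 2 counts in RAM replicates 1 to 5. In CPM these were 2.54, 0.356, 1.19, 0.416 and 2.01 in MAMs and 0, 0.225, 0, 0.417 and 0.0426 in RAMs, where a count of 0 allows up to 0.0514 CPM in RAM replicate 1 and 0.0621 CPM in RAM replicate 3. RAM replicate 4 lay level with MAM replicate 4 and above MAM replicate 2, so the groups overlapped. Without a filter on low genes the log2 fold change was 3.23 (SE 1.25), with an adjusted p of 0.0471 (edgeR, Benjamini-Hochberg), in a fit where 13.0% of 18035 genes were differentially expressed and higher in MAMs.

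Markers of the cells known for Il1rl1 were set beside it. The sorting gate for F4/80 and MRC1 was made for macrophages. The 10 mast cell and basophil genes, of which only Hdc was tested, summed to 19.2, 18.7, 21.8, 20.8 and 24.5 CPM in MAM replicates 1 to 5 and to 1.75, 0.571, 0.621, 0.793 and 1.21 CPM in RAM replicates 1 to 5. Most of the MAM sum was Hdc, a gene that myeloid cells also use, at a mean of 19.1 CPM in MAMs and 0.467 CPM in RAMs. Without Hdc the MAM sums were 0.793, 3.36, 0.38, 0.0362 and 4.94 CPM and the RAM sums 1.32, 0.195, 0.0414, 0.563 and 0.49 CPM, and the groups overlapped. The defining genes Mcpt4 and Fcer1a were at 0 in all 10 libraries, and Mcpt8, Tpsb2, Tpsab1 and Ms4a2 were at 0 in all RAM libraries and each in 4 of 5 MAM libraries. The T cell and ILC2 list had 9 of its 10 genes in the files. Of 3 tested, 2 were differentially expressed and higher in MAMs, against 15.3% of all genes tested. This list summed to 20.2, 26.2, 22.7, 17.6 and 30.4 CPM in MAMs and to 10.8, 7.09, 4.02, 5.61 and 9.93 CPM in RAMs. The genes called were Areg, the most abundant, at means of 10.7 and 4.38 CPM, and Cd4, at 10.1 and 0.619 CPM. Cd3e was tested and did not pass, at 1.58 and 1.22 CPM. Of the genes not tested, Cd3d and Gata3 had higher means in MAMs (0.362 and 0.185 against 0.198 and 0.117 CPM). Cd3g and Cd8a had lower means there (0.0736 and 0.417 against 0.364 and 0.558 CPM). Il5 was at 0 in all 10 libraries and Il13 at 0 in all MAM libraries. The part of these cells in the level of Il1rl1 was not tested.

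The receptor genes Il1r2, Il1r1 and Il1rl1 lie in this order on the plus strand of chromosome 1. Il1r2 is at chr1:40074079-40125231 with 9 exons in its longest coding transcript, Il1r1 at chr1:40225080-40317257 with 11 exons and Il1rl1 at chr1:40429570-40465415 with 11 exons. Gaps of 99.8 kb and 112 kb separate them, and Il1rl2, at chr1:40324610-40367562, lies within the larger gap. Il1rap is on another chromosome, at chr16:26581704-26730117, as are Il18 at chr9:50554827-50581840 and Il18bp at chr7:102014885-102018690.

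Levels were ordered within each group by FPKM. In MAMs the order was Il1rn at 494 ± 91.7, Il18bp at 160 ± 45.1, Il1b at 149 ± 21.8, Il1a at 36.0 ± 10.8, Il18 at 27.7 ± 9.06, Il1rap at 5.30 ± 0.575, Il1r2 at 1.77 ± 1.69, Il1r1 at 0.676 ± 0.286 and Il1rl1 at 0.211 ± 0.155 FPKM (SD, n = 5 each). The ranges of Il18bp and Il1b overlapped, as did those of Il1a and Il18, of Il1r2 and Il1r1, and of Il1r1 and Il1rl1. In RAMs the order was Il1rn at 190 ± 10.6, Il18 at 130 ± 15.2, Il1a at 20.4 ± 4.68, Il1b at 13.9 ± 4.26, Il18bp at 10.5 ± 1.62, Il1rap at 5.37 ± 0.778, Il1r1 at 1.41 ± 0.467, Il1rl1 at 0.0263 ± 0.0384 and Il1r2 at 0.0177 ± 0.0164 FPKM (SD, n = 5 each). There the ranges of Il1a and Il1b, of Il1b and Il18bp, and of Il1rl1 and Il1r2 overlapped. By CPM per kilobase of the longest coding transcript, a unit added after seeing the data, some neighbours in the order changed places: Il1b (194) and Il18bp (86.7), and Il18 (39.8) and Il1a (25.3), in MAMs, and Il1b (23.0) and Il1a (14.4), and Il1r2 (0.0661) and Il1rl1 (0.0258), in RAMs. By both units the antagonist gene was the highest member in both groups, and the receptor genes were lower than every ligand gene in both.

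**Figure D4:**
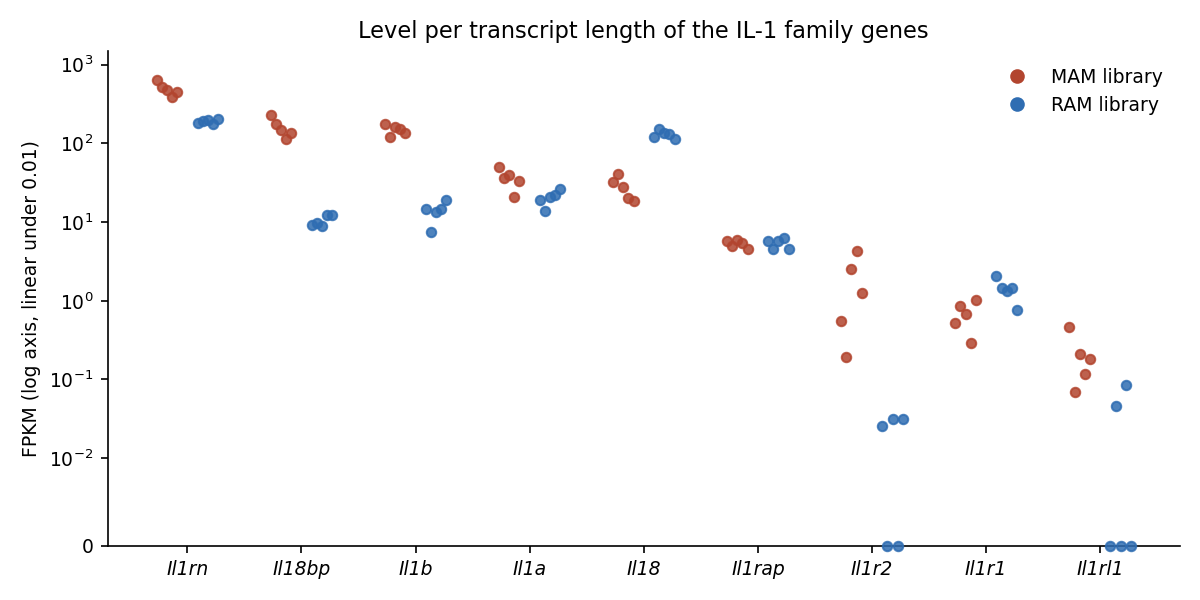
Level of each member in FPKM, with dots for the 5 MAM and 5 RAM libraries on a log axis that is linear below 0.01. Il1rn was the highest member in both groups, at means of 494 and 190 FPKM, and Il18 moved from a mean of 130 FPKM in RAMs to 27.7 FPKM in MAMs.

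Of 12 further IL-1 family genes, 1 passed the filter, and 6 were at 0 counts in all 10 libraries (Il1f5, Il1f6, Il1f8, Il1f10, Il1rapl1 and Il1rapl2). The gene that passed was Il1rl2, which encodes the receptor for the IL-36 cytokines. It was measured at 1.99, 1.31, 3.98, 5.30 and 5.37 CPM in MAM replicates 1 to 5 and at 40.9, 32.2, 31.5, 29.7 and 40.1 CPM in RAM replicates 1 to 5. Every RAM library lay far above every MAM library. The log2 fold change was -3.28 (SE 0.343, 95% confidence interval -4.01 to -2.54), a 9.68-fold higher level in RAMs with an adjusted p of 8.8e-07 (edgeR, Benjamini-Hochberg). Of its ligands, Il1f9, the IL-36 gamma gene, had 0 to 2.08 CPM in MAMs and 0 to 2.65 CPM in RAMs.

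Both chains of the IL-18 receptor were low. Il18rap, the accessory chain, had 3.90, 7.40, 3.91, 4.61 and 5.69 CPM in MAM replicates 1 to 5 and 1.68, 2.36, 1.72, 4.01 and 1.79 CPM in RAM replicates 1 to 5. RAM replicate 4 lay within the MAM range, and the other RAM libraries lay below it. Without a filter the log2 fold change was 1.16 (SE 0.425), with an adjusted p of 0.0365 (edgeR, Benjamini-Hochberg). Il18r1, the binding chain, had 0.0431 to 3.70 CPM in MAMs and 0.33 to 1.11 CPM in RAMs. Il33, the ligand of ST2, had 0.23 to 4.39 CPM in MAMs and 0.0209 to 0.874 CPM in RAMs. Sigirr, an inhibitory receptor of the family, had 0.061 to 5.85 CPM in MAMs and 0.104 to 1.26 CPM in RAMs. The groups overlapped for these last genes and for Il1f9.

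Most genes downstream of the receptor changed by less than a fold of 2. Of 28 genes of IL-1 receptor signalling, 27 were tested, and adjusted p was under 0.05 (edgeR, Benjamini-Hochberg) for 13 higher and 5 lower in MAMs, against 56.2% of all genes tested in either direction. Of the 27, 1 was differentially expressed and higher, 2 were differentially expressed and lower, and 9 did not pass. The share differentially expressed was 11.1%, against 30.3% of all genes tested, and the median log2 fold change of the list was 0.23, against -0.015 for all genes. Myd88, the adaptor of the receptor, had a log2 fold change of 0.55 with an adjusted p of 8.4e-04 (edgeR, Benjamini-Hochberg). Among the IRAK kinases, Irak2 was at 0.95, Irak3, which restrains the pathway, at 0.80, Irak4 at 0.26 and Irak1 at -0.15, which did not pass. With upper-quartile factors Irak1 was at -0.32 and passed on adjusted p. Irak4 passed narrowly, and no longer passed under 10 of 21 alternatives, among them those without MAM replicate 1 or 5 or RAM replicate 1, 2, 4 or 5 (0.18 to 0.26).

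The gene called higher was Tab2, an adaptor of the kinase TAK1, at 298 to 359 CPM in MAMs and 151 to 181 CPM in RAMs. Its log2 fold change of 1.03 (SE 0.0798, adjusted p = 3.1e-08, edgeR, Benjamini-Hochberg) lay at the threshold. Ube2v1 and Irak2 lay just below the threshold, at 1.00 and 0.95, so the count of 1 was 0 without MAM replicate 5 or RAM replicate 1, 2 without MAM replicate 3 or RAM replicate 4, and 3 without MAM replicate 2 or RAM replicate 5. Tab2 itself was at 1.00 without MAM replicate 5 or RAM replicate 1, at 0.86 with upper-quartile factors and at 0.98 with limma on log2(FPKM + 1), and was not called there. Peli2, a Pellino ubiquitin ligase that acts on IRAK kinases, was lower in MAMs, at 13.4 to 25.9 CPM against 88.2 to 126 CPM, a log2 fold change of -2.58 (SE 0.168, adjusted p = 3.9e-09, edgeR, Benjamini-Hochberg). Peli3, of the same ligase family, was at 1.03 to 1.74 CPM in MAMs and 1.36 to 12.6 CPM in RAMs, with RAM replicate 5 inside the MAM range. Its log2 fold change was -2.44 (SE 0.483, adjusted p = 5.1e-04, edgeR, Benjamini-Hochberg), and in replicates 4 and 5 alone it was -1.96 and not called.

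Genes that process and release IL-1 and IL-18 were divided. Of 22 genes, all tested, 5 were differentially expressed and higher in MAMs, 2 were differentially expressed and lower, 10 passed on adjusted p alone (7 higher and 3 lower) and 5 did not pass. The share differentially expressed, 31.8%, was close to the 30.3% of all genes tested, and the median log2 fold change was 0.25. Mefv, which encodes pyrin, the sensor of an inflammasome, was at 40.7 to 60.5 CPM in MAMs and 0.188 to 0.548 CPM in RAMs, a log2 fold change of 7.17 (SE 0.266, adjusted p = 6.4e-12, edgeR, Benjamini-Hochberg). Ninj1, which encodes a protein of plasma membrane rupture, was at 81.1 to 127 CPM in MAMs and 1.08 to 2.86 CPM in RAMs, a log2 fold change of 5.78 (SE 0.278, adjusted p = 1.1e-10, edgeR, Benjamini-Hochberg). Neither gene overlapped between the groups. Casp4, which encodes the caspase that senses lipopolysaccharide in the cytosol, followed at 1.94 (SE 0.129, adjusted p = 5.0e-09, edgeR, Benjamini-Hochberg). The other genes called higher were Pycard, the inflammasome adaptor, at 1.32, and P2rx7, a channel opened by ATP, at 1.12. P2rx7 was not called with upper-quartile factors, at 0.95, or in replicates 1 to 3 alone, at 0.96.

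Casp1, the gene of the enzyme that cleaves IL-1 beta and IL-18, was at 174 to 270 CPM in MAMs and 104 to 118 CPM in RAMs. Its groups did not overlap, with a log2 fold change of 0.93 (adjusted p = 3.9e-06, edgeR, Benjamini-Hochberg), under a fold of 2. In replicates 1 to 3 alone Casp1 was at 1.05 and called. The sensor gene Nlrp3 did not pass, with a log2 fold change of 0.18 and an adjusted p of 0.196 (edgeR, Benjamini-Hochberg). The sensor gene Nlrc4 was lower in MAMs, at 16.0 to 30.0 CPM against 50.9 to 67.1 CPM, a log2 fold change of -1.42 (adjusted p = 1.2e-05, edgeR, Benjamini-Hochberg). Capn1, which encodes a subunit of a calpain protease of the kind that cleaves IL-1 alpha, was at 85.8 to 112 CPM in MAMs and 221 to 271 CPM in RAMs, a log2 fold change of -1.29 (adjusted p = 6.1e-09, edgeR, Benjamini-Hochberg).

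Genes known to be induced by IL-1 or NF-kappa B were mostly higher in MAMs. Of 25 genes, 22 were tested and 16 were differentially expressed and higher, a share of 72.7%. Of all genes tested, 15.3% were differentially expressed and higher, and 30.3% were differentially expressed in either direction. The list was chosen with earlier results of these data known. A further 4 were higher on adjusted p alone (edgeR, Benjamini-Hochberg), 2 did not pass, and the median log2 fold change was 1.94. For 19 of the 22 the groups did not overlap, against 44.9% of all genes tested. Many of these genes also respond to other stimuli, and the list holds Mmp9, which is also on the neutrophil list.

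Mmp13, a collagenase gene, was at 68.9 to 192 CPM in MAMs and 0.766 to 1.32 CPM in RAMs, a log2 fold change of 6.80 (SE 0.289, adjusted p = 2.9e-11, edgeR, Benjamini-Hochberg). Ptgs2, which encodes the prostaglandin synthase COX-2, was at 136 to 201 CPM in MAMs and 1.76 to 3.51 CPM in RAMs, a log2 fold change of 6.27 (SE 0.212, adjusted p = 2.1e-12, edgeR, Benjamini-Hochberg). Both sets of libraries were far apart. Mmp9, a gelatinase gene, was at 11.5 to 31.1 CPM in MAMs and 0.0207 to 0.582 CPM in RAMs, a log2 fold change of 6.21 (SE 0.592, adjusted p = 3.2e-07, edgeR, Benjamini-Hochberg) that was 6.81 without RAM replicate 1. The smallest changes among the genes called were those of Birc3 at 1.11, Sod2 at 1.46 and Nfkbia at 1.60. With upper-quartile factors Birc3 was at 0.94 and not called. Those that did not pass were Zc3h12a, at -0.29 with an adjusted p of 0.105, and Lcn2, at 2.03 with an adjusted p of 0.0699 (edgeR, Benjamini-Hochberg). Csf2 was at 0 counts in all 10 libraries.

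**Figure D5:**
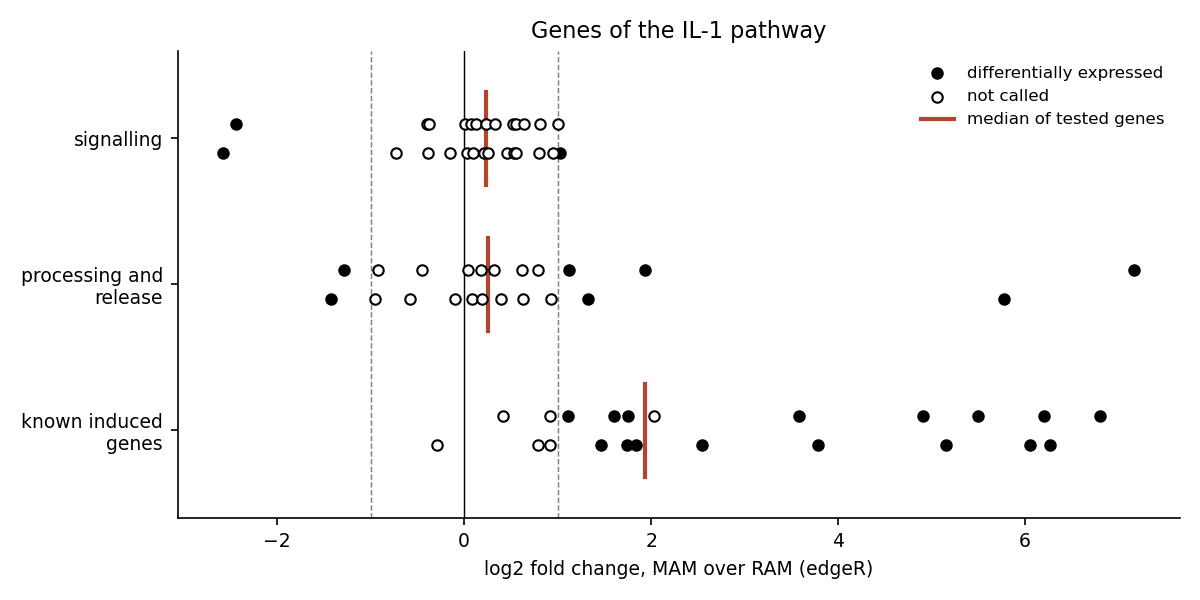
Log2 fold change (MAMs minus RAMs) of each tested gene in the lists of receptor signalling, processing and release, and induced genes, with differentially expressed genes filled, the median of each list as a red line and dashed lines at a fold change of 2. The medians were 0.23, 0.25 and 1.94.

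For each tested member, the genes with the closest profile over the 10 libraries were found among genes with a mean of at least 10 CPM, by the root mean square difference of log2 CPM centred on each gene's mean. For Il1b they were Atp8b2 at 0.228, Got1 at 0.271 and Man1a at 0.275, and for Il1a they were C3 at 0.202, Bcl7b at 0.229 and Rbm8a at 0.242. For Il1rn they were Psmb10 at 0.0977, Cmtm3 at 0.0981 and Cd244 at 0.104. Il18bp was closest to Sp100 at 0.203, Mndal at 0.215 and Pml at 0.218, and Il18 to Cd164 at 0.173, Mphosph9 at 0.186 and Abhd17c at 0.206. Il1r1 was closest to Klf8 at 0.275, Parp8 at 0.313 and Cdc42bpa at 0.315. The neighbours of Il1r2, Cbr2 at 0.908, S1pr1 at 0.938 and Pou2f2 at 0.96, were much farther from it than those of the other members. These distances describe likeness over libraries that share a group difference and carry no test.

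Some members overlap other annotated genes by their full spans, introns included, and whether the counted exons overlap was not examined. The strand setting of the counting is not given in the sources used here either, so reads of such genes may not be fully told apart. The level of an overlapping gene does not measure how many reads were shared. Il18 overlaps Bco2 and Tex12 on the opposite strand. Bco2 was higher in MAMs, at 7.55 to 22.8 CPM against 1.02 to 4.62 CPM, the opposite direction to Il18. Il18bp overlaps Numa1 on the opposite strand, which was at 125 to 154 CPM in MAMs and 180 to 227 CPM in RAMs, again the opposite direction. Il1b overlaps the antisense gene Il1bos, at 1.72 to 4.31 CPM in MAMs and 0.27 to 1.40 CPM in RAMs, far below Il1b itself. Il1a overlaps Gm14023, at 6.00 to 15.7 CPM in MAMs and 2.74 to 10.5 CPM in RAMs, with means of 11.1 and 5.42 CPM in the same direction as Il1a. How far this overlap affects the value of Il1a was not tested. Il1r2 overlaps the antisense gene Gm16894, which was at 0.305 to 4.81 CPM in MAMs and 0 to 0.0835 CPM in RAMs, the same direction as Il1r2 and a similar level. How far this overlap affects the value of Il1r2 was not tested. On the same strand, Il1r1 overlaps Gm38070 and Il1r2 overlaps Gm37347, which are not among the genes counted. Il1rap overlaps Gm20319, with 4 counts in MAM replicate 5 and 0 in the other libraries.

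Marker lists of other cells that a sort from lung could hold were summed in the same way. NK cell genes summed to 16.4 to 46.9 CPM in MAMs, led by Klrk1 at 29.0 CPM, and to 10.7 to 15.2 CPM in RAMs, led by Prf1 at 11.3 CPM. Without Klrk1 the sums were 0.215 to 3.64 CPM in MAMs and 10.4 to 13.1 CPM in RAMs, the reverse order. These sums were small beside the macrophage sums. Dendritic cell genes summed to 3.44 to 13.9 CPM in MAMs, led by Zbtb46 at 2.31 CPM and with Siglech at 0, and to 17.2 to 26.0 CPM in RAMs, led by Clec9a at 19.4 CPM. Most of the RAM sum was Clec9a, and Flt3 and Siglech also had lower means in MAMs. Zbtb46, Xcr1, Cd209a and Ccr7 had higher means in MAMs (2.31, 1.29, 1.11 and 1.94 against 1.72, 0.455, 0.00417 and 0.321 CPM). Ccr7 was called higher, but no gene of the list was without MAM replicate 2 or with the replicate block. Tumour and epithelial genes summed to 10.6 to 24.5 CPM in MAMs and 590 to 702 CPM in RAMs, led by Krt19 at 6.09 and 436 CPM, with Krt14 at 0 in all RAM libraries. Cdh1 and Epcam were also higher in RAMs, at 131 and 76.8 CPM against 5.16 and 0.652 CPM. Krt8, Krt18, Krt7 and Krt14 had higher means in MAMs, at 1.48, 1.81, 0.52 and 0.107 CPM against 0.0453, 0.119, 0.124 and 0 CPM. That of Krt18 rested on MAM replicate 1, at 8.84 CPM. Lung epithelium genes summed to 22.0 to 40.1 CPM in MAMs, led by Hopx at 21.0 CPM, and to 25.4 to 46.2 CPM in RAMs, led by Sftpc at 14.4 CPM. Without Hopx they were 1.59 to 14.5 CPM in MAMs and 25.1 to 45.6 CPM in RAMs. Of the 5 tested, 3 were differentially expressed and lower in MAMs, against 15.1% of all genes tested, with Hopx higher. The part of these cells in the levels of the family members was not tested.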

How the data were processed

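RNA-seq libraries of 5 MAM and 5 RAM samples were analysed as deposited. The authors aligned reads to GRCm38 with TopHat2 2.0.13 and deposited raw gene counts from HTSeq 0.6.1 on UCSC RefGene models, with the strand setting not stated. They also deposited FPKM values from Cufflinks 2.2.1, for 24460 of the 24538 genes. Lines that name no gene, 56.5% ± 1.65 of each MAM file and 63.2% ± 0.899 of each RAM file (SD, n = 5 each), entered neither library sizes nor tests. No libraries were identical.

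Counts of genes with a mean of at least 1 FPKM in MAMs or RAMs were fitted with edgeR 4.0.16 in R 4.3.3 (TMM factors 0.897 to 0.943 in MAMs and 1.07 to 1.10 in RAMs, quasi-likelihood test, no covariates, Benjamini-Hochberg adjustment). The study used DESeq2, run here as an alternative (1.42.0). The fit was tested on simulated data with known changes. These changed far fewer genes than were called here and gave every gene the same dispersion. That test therefore does not show how the fit handles the present data. Log2 CPM used a prior count of 2. A count of 0 was taken to allow 3 counts, and this limit covers counting error only, because without molecular identifiers reads need not be separate molecules. Alternatives were RLE and upper-quartile factors, DESeq2, filterByExpr, no filter, limma 3.58.1 on log2(FPKM + 1) and log2(FPKM + 0.1), a replicate block, and each library left out in turn. A term for the order of columns in the FPKM table, and fits of replicates 1 to 3 and of 4 and 5 alone, were chosen after seeing the data.

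Members and lists were chosen with earlier results of these data known. Named were all members and other family genes, the 3 highest and 3 lowest differentially expressed genes of each list with every called signalling gene, the most abundant and zero-count genes of each marker list, and the 3 nearest profiles of each member. The result of 1 further marker list is not reported here. The neighbours of Il1rap, whose log2 fold changes lay at -0.0098 to 0.032, are not named. Genes that overlap members were taken from the annotation, and Casp1, Pycard, Nlrp3, Myd88, Irak1, Irak2, Irak3, Irak4, Ube2v1, Siglecf, Ccr2, Cxcr2, S100a8, S100a9, the other named marker genes and genes of the lists that did not pass were chosen after their values were seen. Motifs were searched on both strands of 300-base RefSeq promoters, and overlapping matches were kept. Figures used matplotlib 3.10.9 (Python 3.11.15).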

Additional observations from a re-analysis of the deposited data

Results flagged for a closer look

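In 30 groups of 5 libraries, the family genes were examined for a library far from the others, where the gap to the nearest library took up over 0.71 of the range of the group. This was so for 5 groups. Chance flags about 1 in 20 groups of normally distributed values, but the groups flagged had low and skewed counts. Their rate by chance is not known, so no excess is claimed. Il1r2 in RAMs was highest in replicate 5, at 0.362 CPM. Il18r1 in MAMs was highest in replicate 1, at 3.70 CPM. Il1f9 was highest in MAM replicate 4, at 2.08 CPM, and in RAM replicate 4, at 2.65 CPM. Sigirr in MAMs was highest in replicate 5, at 5.85 CPM. These genes were low in the other libraries of the same group, and the cause was not tested.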

How the results depend on the processing

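The directions and calls of Il1b, Il1rn, Il18, Il18bp and Il1r2 were kept under every alternative. With the replicate block, log2 fold changes were 0.78 for Il1a, 3.13 for Il1b, 1.37 for Il1rn, -1.91 for Il18, 3.43 for Il18bp, -1.12 for Il1r1, 5.85 for Il1r2 and -0.042 for Il1rap, 2 signalling genes were called higher, and no other call of a member and no other count of the family, signalling, processing or induced genes changed by over 1.5 times. The labels share only a number: correlations between same-numbered libraries were -0.0103 to 0.0408, and 2 of 5 pairs were highest with their own number. Il1r1 lost its call with limma (-0.52 and -0.99 for pseudocounts of 1 and 0.1) and in replicates 4 and 5 alone (-0.71), and ran from -1.28 to -0.88 with a library left out, so members called lower were 1 in these limma fits and in replicates 4 and 5, and 1 to 2 with a library left out. Il1a was 1.20 in replicates 1 to 3, past a fold of 2, and 0.14 in replicates 4 and 5, which hold fewer libraries. Il1rap changed sign in replicates 1 to 3 (0.0015) and ran from -0.11 to 0.0026 with a library left out. Signalling genes called higher were 2 with RLE factors, DESeq2 and the term for column order, 3 with filterByExpr, no filter and replicates 1 to 3, 0 with upper-quartile factors and limma on log2(FPKM + 1), and 0 to 3 with a library left out. Those called lower were 1 in replicates 4 and 5. Irak4 did not pass with upper-quartile factors (0.093), the replicate block (0.25), replicates 1 to 3 (0.22) or replicates 4 and 5 (0.31). Processing genes called lower were 4 with upper-quartile factors, which moved the median of all genes from -0.0152 to -0.18. Other family genes called higher were 1 (Il18rap) with filterByExpr and no filter, which tested more genes. Ratios by counts per kilobase had means of 8.44 in MAMs and 1.59 in RAMs for Il1b to Il1a, 2.24 and 0.055 for Il18bp to Il18, 2.69 and 9.43 for Il1rn to Il1b, and 6.64 and 0.0734 for Il1r2 to Il1r1. Il1r2 was 1.23 and 3.41 with limma for pseudocounts of 1 and 0.1. Neutrophil genes called higher were 2 with upper-quartile factors and limma on log2(FPKM + 1) and 1 in replicates 1 to 3, with 2 lower. Stromal and endothelial genes called higher were 2 in replicates 4 and 5 and 1 with limma on log2(FPKM + 1), and 2 were lower with no filter. T cell and ILC2 genes called higher were 1 in replicates 4 and 5. Lyz2 changed sign with limma (2.44 and 3.11), where RAM replicate 1 is listed at 0 FPKM despite 32699 CPM, and Gm14023 in replicates 4 and 5 (-0.33). Causes not named were not tested. Il1r2 and Il1rl1 rest on 0 to 20 counts in each RAM library.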
